A study of Oryza sativa with 2 samples.

Results

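HAK1 and HAK27 are rice genes of the HAK family of potassium transporters, membrane proteins that carry potassium ions into cells or between compartments of the cell. They were chosen as the HAK genes that stood out in earlier results of the same arrays, so the values that single them out are described here and not tested. They are 2 of the 15798 genes that the platform annotation pairs with probes of a single gene, each with 1 of the 22574 probes that have a value on both arrays. The other rice genes that were matched by a name of HAK plus a number and had a listed probe serve as background, with 22 probes for 20 genes.

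The study compared whole rice (Oryza sativa) seedlings, 7 days old and grown on MS medium in a growth chamber, that were irradiated for 2 h 35 min with carbon ion beams from the HIMAC accelerator, with healthy seedlings of the same age that were left as controls. Total RNA of both was hybridised together on 2 Agilent rice oligonucleotide arrays that read each RNA in its own colour. Irradiated RNA was labelled with Cy5 and control RNA with Cy3 on the first array, and the dyes were exchanged on the swapped one. Both arrays carry the same replicate number, so they were read as a dye swap of 1 pair of extracts: there was 1 replicate per group, no test was possible, and the 2 arrays measure technical error only. The labels name no cultivar and no radiation dose, and do not say how many seedlings went into an extract. In whole seedlings a change in RNA per cell and a change in the share of cells that hold it cannot be told apart.

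Rice takes up potassium through channels when the ion is plentiful and through HAK carriers of high affinity when it is scarce. HAK1 is the best known of these carriers: its transcript builds up in potassium-starved rice roots, and plants without it take up less potassium and grow poorly under low potassium and salt. HAK10 has been placed in the vacuole membrane, HAK16 acts in potassium uptake of salt-treated roots, and HAK12 works in sodium recovery from root vessels. The role of HAK27 is less well known.

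All values below are log2 ratios of irradiated over control, taken after each array's ratios were freed of their trend with spot intensity. Every direction and name rests on 3 readings of the data. The deposited values were read as Cy5 over Cy3, the usual order, which no source used here states, so directions are likely and not certain, and with Cy3 over Cy5 each sign would turn. The numerator was taken to be 1 dye on both arrays, so the swapped array was turned. Before that, the columns correlated at 0.28 over all probes after normalization, and 1149 probes passed 2-fold with the dye, where 488 passed it with irradiation. In the brightest 2 intensity deciles the arrays correlated at 0.61 once turned. In each of the other 8 deciles they correlated below 0, among them the deciles of the pair itself, at -0.586 in decile 7, which holds HAK27, and -0.059 in decile 8, which holds HAK1. If the columns were instead irradiated over control as deposited, HAK1 and HAK27 would be above 0 on the first array and below 0 on the other. The probe names rest on a numbering of the spots that was recovered from the values. Of 207 bright spots that lay at least 4-fold below the trend on both arrays, and so followed the dye, all 207 fell on unnamed positions in that numbering, where 17.4% did with the numbers as listed and where 20.9% of all spots are unnamed. Over 426 genes with 2 probes that were both brighter than the median probe, the ratios of the probes of a gene correlated at r = 0.48 in the recovered numbering and 0.01 as listed, a description across genes that share the arrays. Over all 1690 genes with 2 probes, dim ones included, r was only 0.20 in the recovered numbering and 0.02 as listed. These comparisons use the same values that the numbering was recovered from, so they are not independent of it.

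HAK1 was the highest of the 24 HAK probes. Its deposited log10 value was 0.859 on the first array, where the irradiated RNA carried Cy5, and -0.299 on the swapped array, where it carried Cy3. In linear terms the channel ratios were 7.23 and 0.503, so the ratio turned over when the dyes were exchanged. After normalization the first array gave HAK1 a ratio of 2.04 and the swapped array one of 2.17. These are 4.12-fold and 4.49-fold, and the mean of 2.10 is 4.30-fold higher in irradiated than in control seedlings. The arrays differed by 0.13, and the part of the signal that followed the dye was -0.06.

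HAK27 was the other HAK probe at least 2-fold higher on both arrays, a call that was lost with median centring and with scaling, where the swapped array gave 0.91 and 0.84. Its deposited log10 value was 0.578 from the first array and -0.071 from the swapped array, channel ratios of 3.78 and 0.850. It stood at 1.29 and 1.41 after normalization, which is 2.45-fold and 2.66-fold, with a mean of 1.35 or 2.55-fold. The gap between arrays was 0.12 and the dye-following part again -0.06. HAK1 was thus the higher of the pair on each array, by 0.75 on the first and 0.75 on the swapped array, or 1.68-fold in the means.

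**Figure D1:**
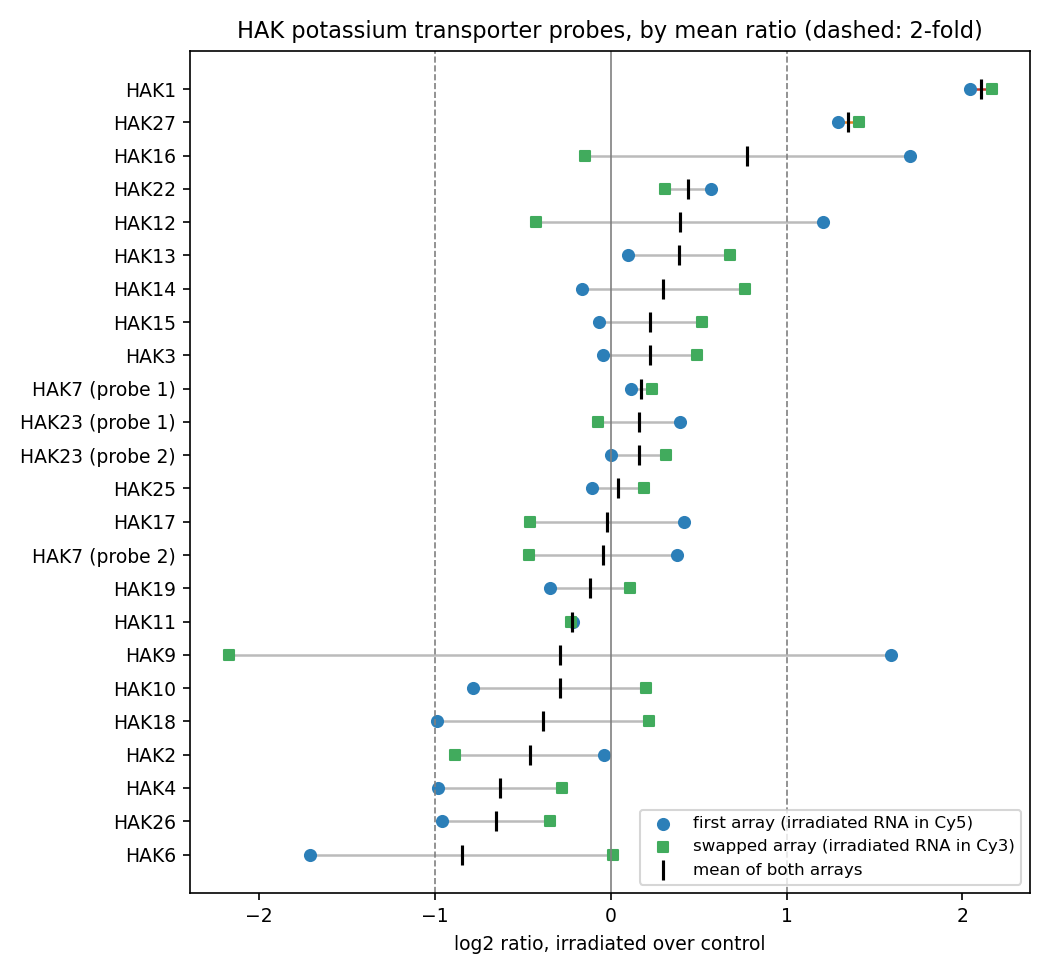
Log2 ratio of irradiated over control for each of the 24 HAK probes on the first array (circles) and the swapped array (squares), with the mean of both as a bar, in order of the mean; dashed lines mark 2-fold. HAK1 and HAK27 sit right of the 2-fold line on both arrays with 0.13 and 0.12 between their points. The points of HAK9, at the other extreme and from a probe in intensity decile 1, lie 3.77 apart.

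Of the 24 HAK probes, which stand for 22 genes, 2 passed 2-fold upward in both measurements and 0 passed it downward. Over all probes 1.90% were that much higher and 0.257% that much lower. Since the pair was chosen on this same contrast, nothing is read from its share. At 1.5-fold the HAK counts were again 2 higher and 0 lower, where 3.72% of all probes were higher and 1.56% lower. At 3-fold HAK1 alone of the HAK probes was higher and 0 were lower, where 0.806% of all probes were higher and 0.0266% lower. HAK1 ranked 141st and HAK27 396th from the top of the 22574 probes by mean ratio.

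The other 22 HAK probes were spread about 0, with a median of 0.01 and means from -0.85 for HAK6 to 0.78 for HAK16. The median of all probes was -0.01. Of the 22 probes 11 had a mean above 0 and 11 below, 0 passed 2-fold on both arrays in either direction, and 18 lay within 1.5-fold of no difference. That is 81.8%, against 75.0% of all 24 HAK probes and 86.6% of all probes. Between HAK27 and the next probe in order of the mean, HAK16, lay a gap of 0.58. With the pair set apart for its values on this same contrast, the 0 calls among the rest and this gap follow in part from the choice. Nothing is read from them.

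HAK16 had the third highest mean, but its arrays disagreed. The first array gave 1.70 and the swapped array -0.15, from a dim probe in intensity decile 1 of 10. Its ratio on the first array was 8 over 5, with a common factor of 8 put back. With median centring the arrays gave 0.51 and 1.18, so their disagreement depends on the trend removed. In the recovered numbering HAK16 belongs to the gene next to HAK27: on chromosome 3 of the RefSeq assembly used for names, no other protein-coding gene lies between them. On the other side of HAK27 the adjacent gene, LOC4333295, stood at -0.53 and 0.49, a mean of -0.02. The gene 3 places away on that side, LOC4333291, had a mean of -0.18 from a bright probe. HAK1 lies on chromosome 4, where its neighbour LOC4335730 had a mean of -0.52 from a probe in intensity decile 1, and LOC4335732, 3 genes away, had -0.24 from one in decile 10. None of the measured neighbours within 3 genes of either gene was 2-fold higher or lower on both arrays.

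HAK22, HAK13, 1 probe of HAK7 and 1 of HAK23 were the further HAK probes with a ratio above 0 on both arrays. HAK22 stood at 0.57 and 0.31 with a bright probe, and HAK13 at 0.10 and 0.68. HAK7, measured by 2 bright probes, had 0.12 and 0.23 on the brighter and 0.38 and -0.46 on the other, with means of 0.17 and -0.04. The probes of HAK23 had means of 0.16 and 0.16. Without restored common factors in the spot intensities one of the HAK7 probes stood at 0.42 and one of the HAK23 probes at 0.71, so the near match of the probes of each gene depends on that step. The signs depend on the trend removed. With median centring HAK22 stood at 1.44 and -0.68, HAK13 at -0.94 and 1.87, and the brighter HAK7 probe at 1.07 and -0.96. The HAK23 probe of this group stayed above 0 on both arrays, at 0.25 and 0.04.

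HAK11, HAK2, HAK4 and HAK26 had ratios below 0 on both arrays. HAK11 was the steadiest of all HAK probes, at -0.21 and -0.23. HAK4 stood at -0.98 and -0.28, HAK26 at -0.96 and -0.35 from a probe in decile 1, and HAK2 at -0.04 and -0.89. None of these reached 2-fold on both arrays. With median centring HAK4 stood at -1.69 and 0.98 and HAK26 at -2.17 and 0.97, so their signs then differed between arrays. HAK11 and HAK2 stayed below 0 on both, at -0.50 and -0.23 and at -0.10 and -0.69.

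For the remaining probes the sign differed between arrays. HAK9 was the most extreme, with 1.60 on the first and -2.17 on the swapped array, so it followed the dye and had a mean of -0.29. Its probe is in intensity decile 1, and with median centring it stood at only 0.41 and -0.80. HAK12 had 1.21 and -0.42, HAK6 -1.71 and 0.02, HAK18 -0.99 and 0.22, and HAK10 -0.78 and 0.20. HAK14, HAK15, HAK3, HAK25, HAK17 and HAK19 had means between -0.12 and 0.30. The signs of the means of HAK14, HAK25 and HAK17 turned with median centring, to -0.04, -0.10 and 0.01, and that of HAK12 without restored factors, to -0.17. Without these factors HAK15 stood at 0.52 and HAK19 at -0.31, against 0.22 and -0.12 with them, and HAK2 at -0.86 against -0.46. In all, 10 of the 24 HAK probes had the same sign on both arrays, or 41.7%, against 44.4% of all probes. Which probes these are depends on the trend removed: with median centring HAK25 was below 0 on both arrays, at -0.02 and -0.18. HAK5, HAK20 and HAK24 were not analysed here.

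**Figure D2:**
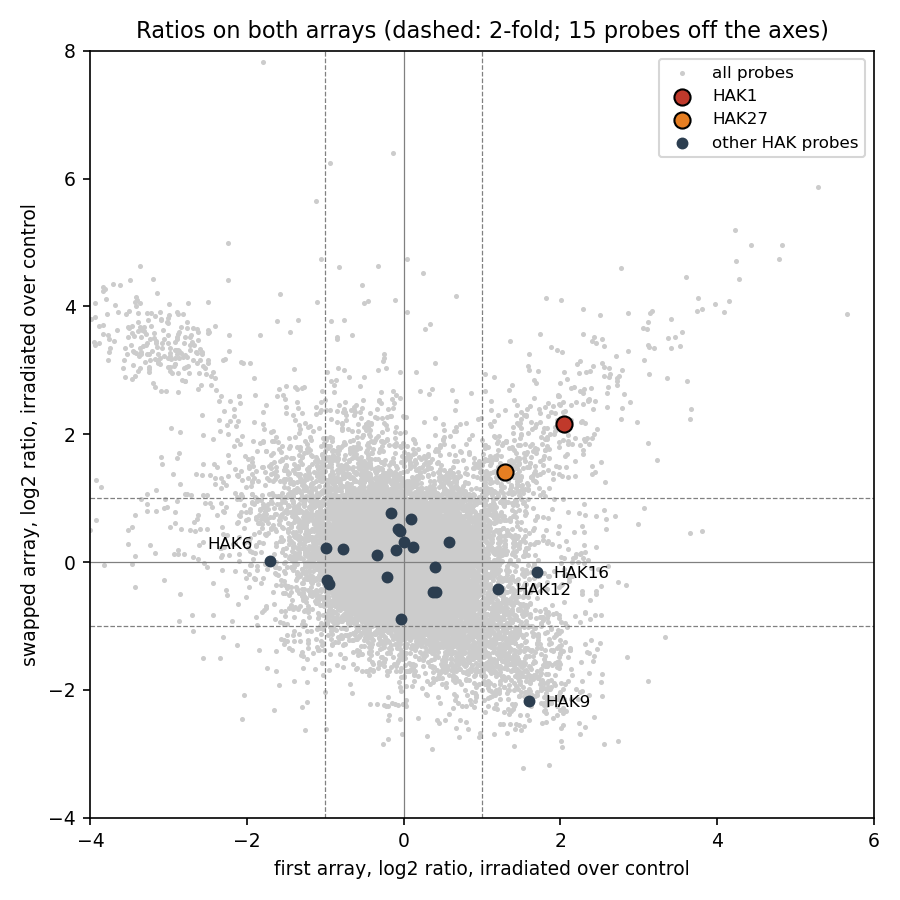
Log2 ratio of irradiated over control on the swapped array against the first array for all probes (grey) and the HAK probes; dashed lines mark 2-fold and 15 probes lie off the axes. HAK1 (2.04 and 2.17) and HAK27 (1.29 and 1.41) lie on the arm at the upper right, where both arrays give a higher ratio. HAK9 (1.60 and -2.17), a probe in intensity decile 1, lies at the lower right among spots that follow the dye.

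The part of the signal that follows the dye had a smaller spread among brighter spots. The HAK1 probe had a recovered intensity of 410 scanner units, in decile 8 counted from the dimmest, and the HAK27 probe one of 355, in decile 7. As fractions of whole numbers the HAK1 ratios were 1207 over 167 from the first array and 265 over 527 from the swapped one. The HAK27 ratios were 654 over 173 and 346 over 407. No common factor was put back for any of these. Of the 24 HAK probes 14 lay in the dimmer 5 deciles and 5 in decile 1.

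The robust SD of the part that follows the dye was 0.34 among the 2258 probes of decile 7 and 0.26 among the 2257 probes of decile 8, where it was 0.94 in decile 1. The robust SD of the mean ratio of irradiated over control was 0.30 in decile 7 and 0.27 in decile 8. The mean of HAK27 was 4.5 times, and that of HAK1 7.7 times, this second SD in its own decile. In those deciles 43 probes lay above HAK27 and 29 above HAK1. These spreads describe the arrays and not the variation between seedlings. Because HAK1 and HAK27 were chosen for their ratios on these arrays, large multiples follow from the choice and nothing is read from them.

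**Figure D3:**
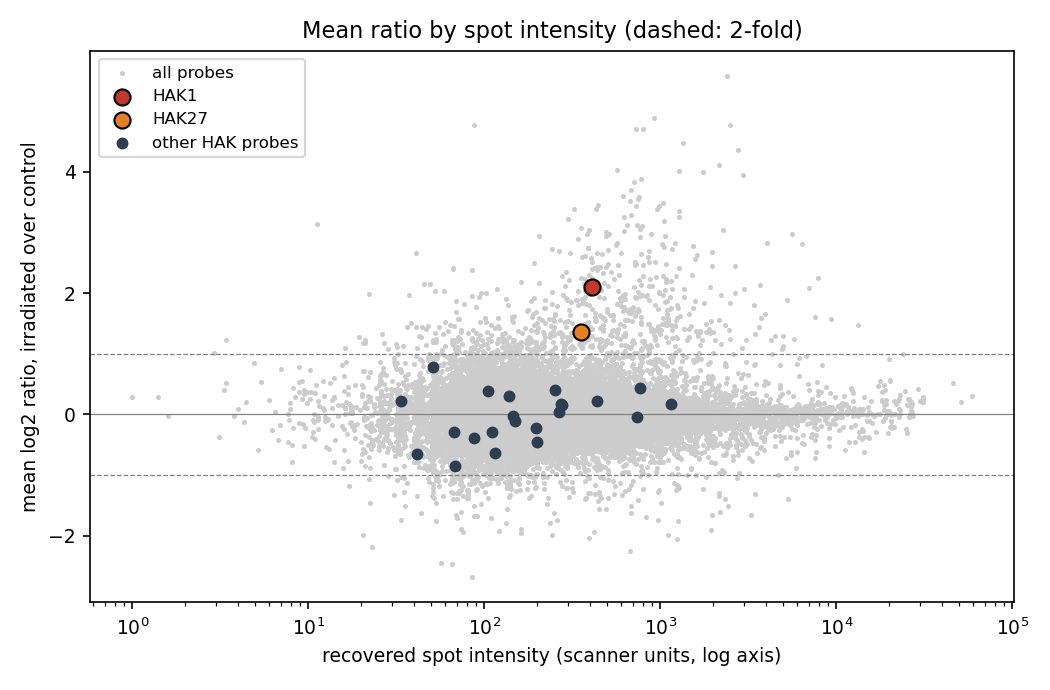
Mean log2 ratio of irradiated over control against recovered spot intensity (log axis) for all probes (grey) and the HAK probes; dashed lines mark 2-fold. HAK1 (intensity 410) and HAK27 (355) lie above the cloud at middle brightness, and the HAK probes with the lowest means, HAK6 and HAK26, are among the 5 in decile 1.

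The 24 spots surrounding HAK1 on the slide had a median mean ratio of 0.03, from -0.51 to 3.23, so at least 1 of them lay above HAK1 itself. Those surrounding HAK27 had a median of 0.06, from -0.64 to 1.27. When every spot was set against the median of the 15 by 15 spots around it, HAK1 had a mean of 2.11 and HAK27 one of 1.38, an alternative chosen after the data were seen.

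For HAK1 and HAK27 normalization moved the values of single arrays more than the means. With each array centred on its median alone, HAK1 stood at 2.68 and 1.66 and HAK27 at 1.75 and 0.91, so that HAK27 fell short of 2-fold on the swapped array while its mean was 1.33. Once the swapped array is turned, the intensity trend enters the arrays with opposite sign where it is alike on both. For HAK1 and HAK27 it thus changed the gap between arrays and left the mean nearly as it was. This did not hold for every probe: the mean of HAK14 was 0.30 with the trend removed and -0.04 with median centring.

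**Figure D4:**
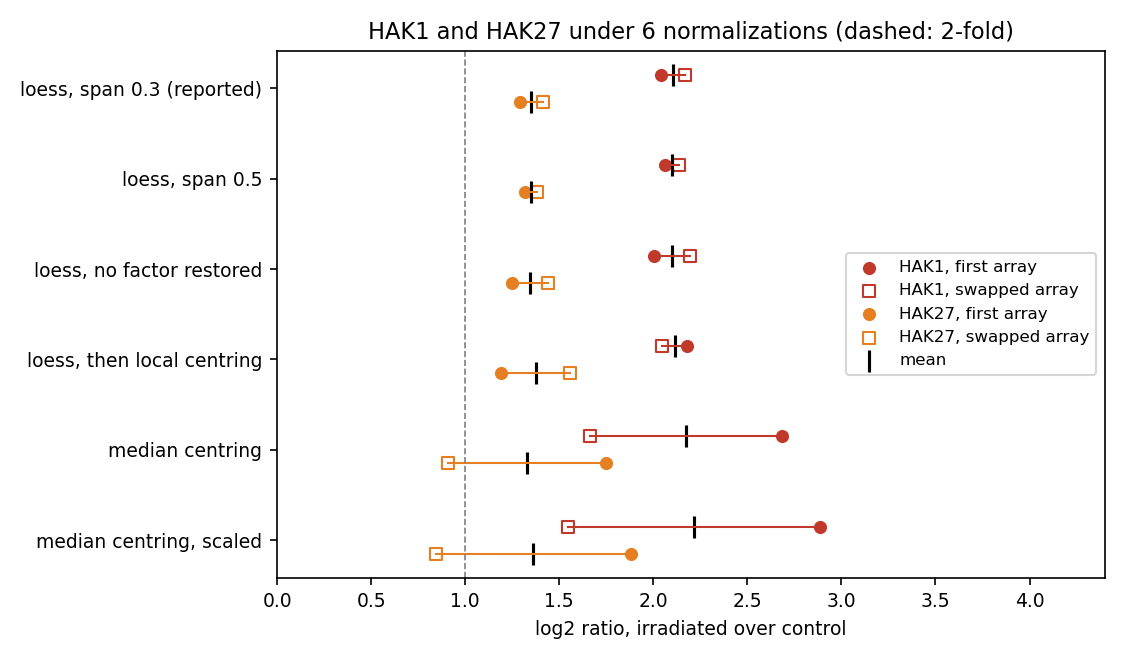
Log2 ratio of irradiated over control for HAK1 and HAK27 on the first array (filled circles) and the swapped array (open squares), with the mean as a bar, under 6 normalizations; the dashed line marks 2-fold. The means lie between 2.10 and 2.22 for HAK1 and between 1.33 and 1.38 for HAK27, while median centring spreads the arrays apart.

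Few other genes of potassium and sodium transport were matched by name. Of their 5 probes 0 passed 2-fold on both arrays in either direction, where 1.90% of all probes were higher and 0.257% lower. KCO2, a potassium channel of vacuole membranes, had the highest mean at 0.51, from a probe in decile 1. KOB1, a potassium channel beta subunit, had means of 0.31 and -0.20 on its 2 probes, the lower from the brighter probe. Without restored factors these were 0.85 and -1.17. The probe of SKC1, a carrier that takes sodium out of the xylem sap, followed the dye, with -2.10 and 2.60 and a mean of 0.25. As fractions its ratios were 1 over 10 on the first array and 9879 over 13559 on the swapped array. Its recovered intensity thus differed widely between arrays, so the trend removed from it is unsure and its values are weak. With median centring its mean was -1.18, so its direction turned. The median of the 5 probes was 0.25, which is the value of the SKC1 probe.

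CBL proteins are calcium sensors that act through CIPK kinases, and some of these pairs switch on potassium channels and carriers. The list held 33 probes of 29 genes, with a median of -0.10. On both arrays 1 of them passed 2-fold upward and 1 downward, beside 1.90% and 0.257% of all probes. The higher one was CIPK23, the kinase known to activate the potassium channel AKT1 in rice roots, at 1.17 and 1.66 with a mean of 1.41. Its other, brighter probe stood at -0.14 and -0.19, so the probes of CIPK23 disagree. CIPK7 was the lower one at -1.49 and -1.14, with its other, brighter probe at -0.13 and -0.22. Of the 6 CBL probes 0 passed 2-fold on both arrays in either direction. Their means ran from -0.47 for the dim probe of a gene named CBL2, LOC4352701, to 0.07 for CBL3. Another gene, LOC4325962, also bears the name CBL2, and its dim probe had a mean of -0.14. Without restored factors CBL3 stood at -0.54, so its direction turned.

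Carriers of other nutrients were set beside the HAK family as a second list of root transport genes. Of its 18 probes, of 15 genes, 1 passed 2-fold upward on both arrays and 0 downward, beside 1.90% and 0.257% of all probes. It was the phosphate transporter PHT1-8, with 1.73 and 2.39, whose other, dimmer probe stood at 0.76 and 0.11. That probe's mean of 0.44 turned to -0.04 without restored factors. The list's median was 0.31, with 0.53 on the swapped array and 0.05 on the other. Of the 18 means 14 were above 0, as were 11097 of the 22574 over all probes. On both arrays 9 of the 18 probes were above 0, as were 5051 of the 22574 over all probes. The nitrate transporter NRT2.2 was the lowest at -0.71, from a dim probe. The whole list of HAK probes had a median of 0.10.

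**Figure D5:**
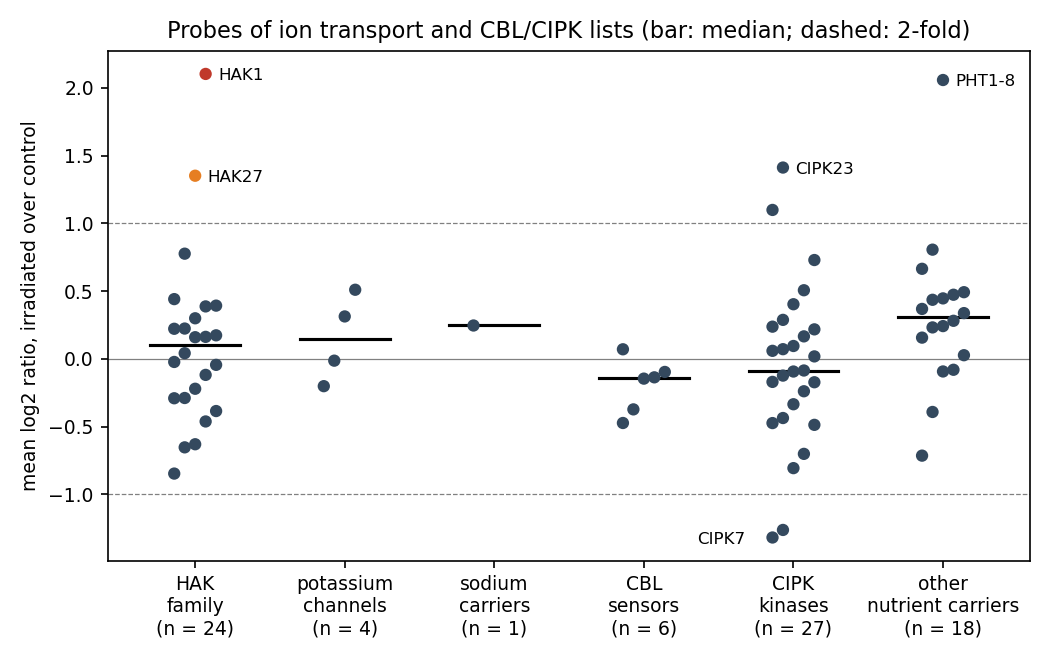
Mean log2 ratio of irradiated over control for each probe (points) of 6 lists of ion transport and CBL or CIPK genes, with the list median as a bar and dashed lines at 2-fold; named points passed 2-fold on both arrays. HAK1 at 2.10 and PHT1-8 at 2.06 are the highest points, and the 4 potassium channel probes stay between -0.20 and 0.51.

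The named genes most like HAK1 and HAK27 were found by the distance between their pairs of array values, among 2411 probes with a gene name. With only 2 values per probe many genes can match, and likeness says that the size of the ratio is alike and no more. Nearest to HAK1 was the transcription factor WRKY76, at 2.04 and 2.23, a distance of 0.07. It was followed by JAZ10, a repressor of jasmonate signalling, at 1.94 and 2.06, and by OC-VIII at 2.10 and 1.89. Nearest to HAK27 were the proteasome subunit PBC1, at 1.35 and 1.41 and a distance of 0.05, the kinase MAPKK1 at 1.36 and 1.36, and the actin AC7 at 1.19 and 1.38.

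The deposited values hold ratios and no levels, and brightness cannot be set against RNA amount between probes, so the labelled tissue could not be checked by the levels of its markers. As a description of the spots, all 3 probes for photosynthesis genes of green shoots were in deciles 9 and 10, 9 of the 15 probes for root-enriched carriers were in the dimmer 5 deciles, and so were all 5 probes for seed storage genes. The photosynthesis probes had a median ratio of -0.02, and 0 of the 3 differed 2-fold on both arrays. The root-enriched carriers had a median ratio of 0.23, from -0.71 for NRT2.2 to 2.06 for PHT1-8. They share these and further probes with the list of carriers of other nutrients, so they are not a separate observation. Of the 15, 1 passed 2-fold upward on both arrays and 0 downward, beside 1.90% and 0.257% of all probes. The part of a shift in the share of roots in the ratios of HAK1 and HAK27 was not tested.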

How the data were processed

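The authors deposited log10 ratios of the 2 channels of each array, 22575 values per array with 1 missing. Per the series' design text GenePix software read the images and GeneSpring normalized them; the sources used here do not give background handling or the numerator. Column medians were 0.051 and 0.202 log10 units, so the values were taken as not normalized. They correlated at r = 0.67 as deposited. The swapped array was turned because of the brightest 2 intensity deciles, where noise is smallest. Once turned, the arrays correlated below 0 in the other 8 deciles.

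Each value was written as the simplest fraction within its 9 decimals, and the geometric mean of the terms served as a rough spot intensity, with the most likely common factor up to 59 restored. Loess (span 0.3, 3 robustness iterations, statsmodels 0.14.6) removed the trend, and residuals were taken to log2. A call means at least 2-fold on both arrays.

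Names came from the platform annotation (17860 probes, 17839 with 1 gene, 21 with several, 4715 unlisted), matched by gene number to the RefSeq table of assembly ASM3414082v1. Of 25 HAK genes there, 22 had a listed probe. The RefSeq table has no descriptions, so lists were matched on names alone. TPK2 and TPK3 were left out because their name is shared with another enzyme. Members, lists and alternatives were chosen with earlier results of these data known. Named were all HAK probes, the highest, lowest and called probes of each other list, and the 3 nearest named genes. Other probes of these genes and the measured chromosome neighbours of HAK1 and HAK27 were added outside that rule, after their values were seen.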

Additional observations from a re-analysis of the deposited data

How the results depend on the processing

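The mean of HAK1 moved by less than the SD of the 2 arrays with median centring, a wider span, no restored factors and local centring. With scaling added to median centring it moved by more than that SD, to 2.22. The mean of HAK27 moved by less than its SD under all 5 of these settings, scaling included. Each array alone lies within that SD by construction. Both turned with Cy3 over Cy5, to -2.10 and -1.35. Read as deposited with no array turned, they stood at -0.063 and -0.060. With probe numbers as listed, other spots bear the names, at 0.37 and -0.38. The 2 higher HAK probes became 1 with median centring, 1 with scaling and 1 at 3-fold, where HAK1 was the one called, 5 on the first array alone, 0 as listed, 0 with Cy3 over Cy5, and 1 unturned, the dye-following HAK9. The 0 lower HAK probes became 1 on each array alone and 2 with Cy3 over Cy5. Among the 5 other potassium and sodium probes, the dye-following SKC1 gave 1 lower call on the first array, 1 higher on the swapped array and 1 lower unturned.

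Over all probes the 430 higher and 58 lower calls became 257 and 27 with median centring, 251 and 28 with scaling, 1744 and 1383 from the first array by itself, 1950 and 1558 from the swapped one, 839 and 352 at 1.5-fold, 182 and 6 at 3-fold, 683 and 234 by the mean, 58 and 430 with Cy3 over Cy5, and 575 and 574 unturned. Local centring was chosen after the data were seen. No paired analysis was possible because there is 1 replicate per group. With 2 technical arrays no value has a replicate check, and dim probes are limited by noise.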
